A study of Homo sapiens with 6 samples.

Results

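The genes described here are 10 targets of the tumour suppressor p53 that act in DNA repair, nucleotide supply and metabolism, chosen by name. They are XPC, DDB2 and POLH (DNA repair), RRM2B (nucleotide supply), FDXR, TIGAR and SESN1 (metabolism and redox balance), TRIAP1 and SPATA18 (mitochondria) and RPS27L, a paralog of a ribosomal protein. Of the 10, 9 carried a named probe set among the 17687 genes tested. FDXR, which encodes ferredoxin reductase, had none in the platform annotation, and its level was not analysed here.

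The cells were SH-SY5Y, an established human neuroblastoma line of sympathetic lineage bought from a cell bank, and all of them were differentiated with atRA (all-trans retinoic acid) over 96 h. One group of 3 samples is labelled 15EN and the other, of 3 samples, VC, for vehicle control. The treatment text, which is the same for both groups, gives a bioactive compound at 15 µM, the series title names eurycomanone from Eurycoma longifolia root, and the labels do not spell out 15EN or name the vehicle. Replicates 1, 2 and 3 of both groups were grown at passages 33, 34 and 35 per the titles, although every description names passage 33. As nothing further says that the samples were separate cultures, p-values here measure the spread between these samples, which may be technical. A single line stands for neurons in this design, and as RNA was taken from whole cultures, fewer cells of a kind and less RNA per cell cannot be told apart.

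p53 is a transcription factor that is held low by the ubiquitin ligase MDM2 and accumulates when cells meet DNA damage, nucleolar or oxidative stress. It binds DNA as a tetramer at response elements built from a pair of half-sites with a short spacer, in promoters or introns of its targets. Beside the targets that halt the cell cycle or promote death, one branch helps cells to repair and adapt: XPC and DDB2 recognise damaged bases for nucleotide excision repair, POLH copies past ultraviolet lesions, RRM2B makes deoxynucleotides outside S phase, and TIGAR, SESN1 and FDXR act on sugar, redox and mitochondrial metabolism. SH-SY5Y is known to carry wild-type p53.

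The promoters of the members are shown first, because the members moved together and differ in whether p53 half-sites lie near their starts. RefSeq windows (GRCh38.p14) of 250 bases before and 50 after a gene's start were available for 9 of the 10 members, all but RRM2B, 13 windows in all. They were searched for exact matches to the p53 half-site consensus, which reads the same on both strands. Of all 35116 windows, 6.63% held a half-site and 0.0285% (10 windows) held a pair of half-sites with a spacer of up to 13 bases. Among the members, DDB2, SESN1, RPS27L and FDXR held a half-site in 1 window each (4 of the 13 windows), and the pair was found at DDB2. The DDB2 pair has a spacer of 1 base and lies at chr11:47214975-47215004 with its flanks (plus strand), just after the more downstream of its 2 annotated starts; the half-sites are in capitals.
DDB2: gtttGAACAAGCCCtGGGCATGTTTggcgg
SESN1: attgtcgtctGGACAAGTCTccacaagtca
The SESN1 half-site (capitals; chr6:109009018-109009047 with flanks, minus strand) begins 49 bases before the most downstream of its 3 annotated starts. RPS27L is shown with its 250 upstream bases (chr15:63157478-63157727, minus strand), where the half-site in capitals begins 59 bases before the start.
RPS27L: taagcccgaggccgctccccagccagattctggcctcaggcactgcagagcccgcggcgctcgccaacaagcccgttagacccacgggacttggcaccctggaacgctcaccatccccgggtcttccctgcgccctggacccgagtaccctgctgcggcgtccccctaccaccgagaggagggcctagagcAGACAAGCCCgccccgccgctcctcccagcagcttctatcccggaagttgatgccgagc
TIGAR, the member of largest rise, and XPC had no half-site in their window. Their 250 upstream bases are printed for comparison, with the letters GGGCGG or, for the other strand, CCGCCC (the GC box, found in 45.0% of all windows) in capitals. The TIGAR stretch is chr12:4320963-4321212 (plus strand) and the XPC stretch chr3:14178602-14178851 (minus strand).
TIGAR: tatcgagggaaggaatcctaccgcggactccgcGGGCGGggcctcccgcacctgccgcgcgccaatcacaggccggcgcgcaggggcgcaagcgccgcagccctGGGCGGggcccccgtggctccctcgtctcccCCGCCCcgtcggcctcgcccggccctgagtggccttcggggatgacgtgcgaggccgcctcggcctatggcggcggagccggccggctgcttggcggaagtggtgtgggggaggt
XPC: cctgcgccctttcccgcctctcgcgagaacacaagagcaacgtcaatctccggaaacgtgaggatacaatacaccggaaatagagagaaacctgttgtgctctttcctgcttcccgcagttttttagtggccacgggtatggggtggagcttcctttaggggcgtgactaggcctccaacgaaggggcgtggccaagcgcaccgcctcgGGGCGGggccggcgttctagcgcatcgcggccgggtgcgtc
All 9 members with a window held a GC box in at least 1 of them, and 11 of the 13 windows held one. A match describes letters in a window, and no match says only that these letters are not there.

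Expression was read as log2 signal per probe set on whole-transcript arrays of 1 colour. Medians over all probe sets were 7.67 to 7.75 in 15EN and 7.69 to 7.73 in VC. Across gene probe sets the VC arrays correlated at Pearson's r of 0.990 to 0.993, and 15EN replicate 3 correlated with the other 15EN arrays at 0.978 and 0.979, below the 0.991 between those. The hybridization controls, spiked-in transcripts, averaged 10.31 to 10.60 in 15EN and 11.22 to 11.37 in VC. A signal is called dim where it falls under a limit set on each array by its 612 negative controls, their 90th percentile (7.41 to 7.99), which does not mean that the gene is silent.

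All 9 measured members were higher in 15EN, and in each the lowest 15EN array lay above the highest VC array. By limma, 9 of 9 passed an adjusted p of 0.05 as higher and 0 as lower, where 12.3% of all genes passed as higher and 9.09% as lower. Groups that do not overlap in the higher direction occurred in 19.7% of all genes. The median log2 difference of the members was 1.91 (range 1.23 to 2.86), against 0.01 over all genes, and 1.30% of all genes reached that median. The members were listed with results of these data known, so these counts describe them and are no independent evidence. Scaling that equalises the hybridization controls adds 0.87 to every difference; the members then ran from 2.10 to 3.73, the median of all genes was 0.88, and 68.7% of all genes passed as higher and 2.47% as lower. Directions below therefore hold relative to the bulk of genes, and are given with that scaling where it turns or ends them. Without the moderation of variances, POLH (adjusted p = 0.0987), RRM2B (0.0538), SESN1 (0.0526) and SPATA18 (0.152) did not pass in limma's least squares fit.

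**Figure D1:**
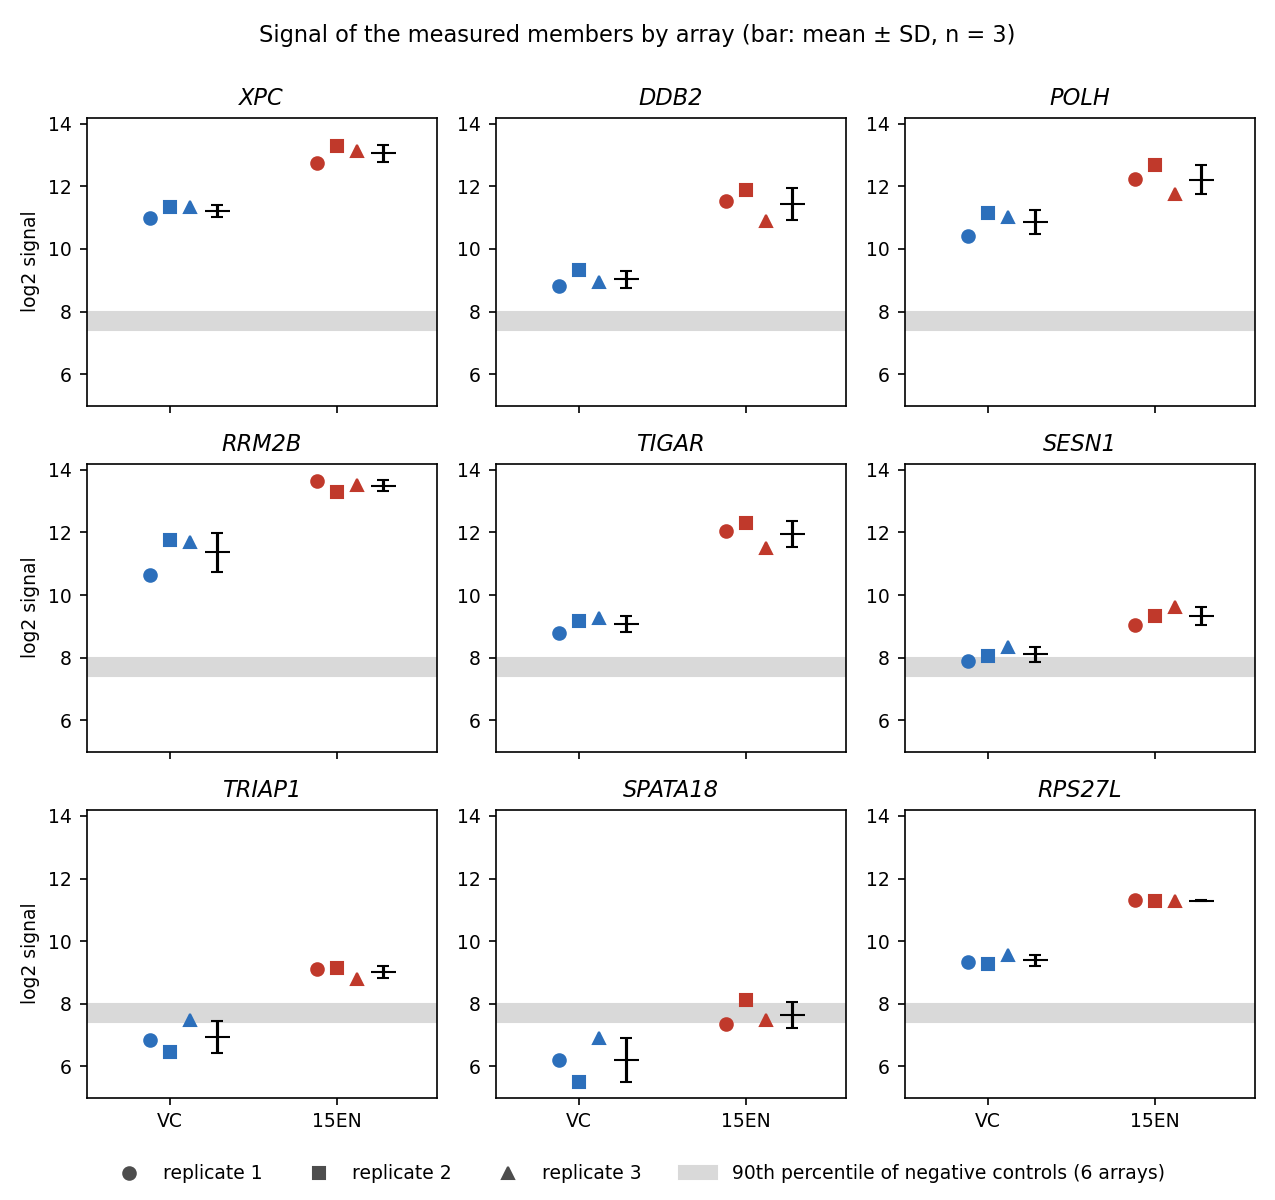
Log2 signal (vertical axis) of the 9 measured members on each of the 6 arrays, by group; marker shape gives the replicate, the bar beside each group its mean ± SD (n = 3), and the grey band the range of the dim limit (7.41 to 7.99). Every member is higher on all 15EN arrays than on any VC array, and TRIAP1 and SPATA18 lie under their own array's limit on all VC arrays.

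Both damage sensors of global nucleotide excision repair rose. XPC (chr3:14145147-14178601), which binds distorted DNA and starts the repair, read 12.75, 13.28 and 13.13 in 15EN (replicates 1, 2 and 3, the order used throughout) against 11.00, 11.33 and 11.34 in VC. The 15EN arrays are close to each other and all lie well above VC, a log2 difference of 1.83 ± 0.23 (SE), or 3.54-fold, with limma adjusted p = 0.000556. DDB2 (chr11:47214454-47239217), the subunit of the UV-damaged DNA binding complex that is altered in xeroderma pigmentosum group E, read 11.52, 11.90 and 10.90 in 15EN and 8.81, 9.34 and 8.96 in VC. Replicate 3 is the lowest 15EN array here, and still stands above every VC array. The difference was 2.40 ± 0.28, or 5.28-fold (limma adjusted p = 0.000443).

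The partners of these sensors did not move in the same way. DDB1, with which DDB2 forms the complex, differed by 0.11 ± 0.20 (95% interval -0.33 to 0.56, limma adjusted p = 0.768), and RAD23B, which stabilises XPC, by -0.09 ± 0.23 (-0.60 to 0.41, 0.839). After scaling to the hybridization controls DDB1 was at 0.98 (adjusted p = 0.00358) and RAD23B, with its sign turned, at 0.78 (0.0246), and both passed as higher. CETN2, the centrin of the XPC complex, had a difference of -1.16 ± 0.41 (limma adjusted p = 0.0695), on arrays of 10.68, 9.93 and 11.77 in 15EN against 11.59 to 12.33 in VC. It passed as lower in the fit blocked by replicate number (0.00921), in the fit that left out 15EN replicate 3 (-1.65, 0.00144) and with array weights (0.00401). After scaling to the hybridization controls CETN2 was at -0.30 (adjusted p = 0.531), and without 15EN replicate 2 at -0.73 (0.229). As a check that does not depend on array scaling, each member was set against its partner within each array. DDB2 minus DDB1 rose by 2.29 and XPC minus RAD23B by 1.92 between the groups, with no overlap of arrays. Each has an exact two-sided permutation p of 0.1, the smallest that 3 against 3 arrays allow, and 0.144 after adjustment over the 13 pairs measured.

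Of 30 other measured genes of nucleotide excision repair, 7 were higher and 3 lower, with a median of 0.27 (12.3% of all genes were higher and 9.09% lower). The nuclease subunit ERCC4 (1.75 ± 0.26), GTF2H1 of the repair helicase complex TFIIH (1.18 ± 0.22) and the ligase scaffold XRCC1 (0.95 ± 0.21) rose, with limma adjusted p from 0.00133 to 0.00882. The 3 lower genes were the ligase LIG3 (-1.52 ± 0.24), the polymerase POLE (-0.85 ± 0.26) and the single-strand binding subunit RPA1 (-0.72 ± 0.23). LIG3 was dim on 2 of the 15EN arrays, and POLE on all 3 of them and on 1 VC array. With a trended robust prior in limma POLE lost its call (adjusted p = 0.0505). After scaling to the hybridization controls, LIG3 stood at -0.65, POLE at 0.02 and RPA1 at 0.15. RPA1 also lost its call in the fit blocked by replicate number (adjusted p = 0.0511), and POLE and RPA1 lost theirs without 15EN replicate 2 or any 1 VC array, RPA1 also without 15EN replicate 1. The list had 4 higher genes without 15EN replicate 1, and 3 without 15EN replicate 2 or any 1 VC array. Its lower count was 1 without 15EN replicate 2 or any 1 VC array.

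POLH (chr6:43576185-43620523) encodes DNA polymerase eta, which copies accurately past thymine dimers. It read 12.23, 12.67 and 11.75 in 15EN and 10.43, 11.14 and 11.03 in VC. The gap between the lowest 15EN array (replicate 3) and the highest VC array is small, and the difference was 1.35 ± 0.29, or 2.55-fold (limma adjusted p = 0.00809). The related polymerase POLK, which bypasses bulky adducts, rose to a like extent, 1.22 ± 0.22 (adjusted p = 0.00333), and POLH minus POLK differed by 0.14 between the groups with overlapping arrays (exact permutation p = 0.5). POLI, the paralog of POLH, differed by 0.63 ± 0.20 (95% interval 0.17 to 1.08, limma adjusted p = 0.053). It passed without 15EN replicate 3 (0.69, 0.0248), with the dimmest genes left out (0.0394), with array weights (0.0194), with a trended robust prior (0.0445) and after scaling to the hybridization controls (1.5).

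Of 15 other measured genes of translesion synthesis, 3 were higher and 0 lower, with a median of 0.43 (12.3% of all genes were higher and 9.09% lower). Beside POLK these were MAD2L2 (1.10 ± 0.23, limma adjusted p = 0.00658) and REV3L (0.94 ± 0.24, 0.0205), both subunits of polymerase zeta. REV3L did not pass without any 1 array other than 15EN replicate 3 (adjusted p = 0.0548 to 0.0857). Without 15EN replicate 3 the list had 7 higher genes and 1 lower, where 18.2% of all genes were higher and 12.7% lower.

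RRM2B (chr8:102204501-102238961), also called p53R2, is the small subunit of ribonucleotide reductase that supplies deoxynucleotides for repair and for mitochondrial DNA in cells that do not divide. It read 13.65, 13.30 and 13.53 in 15EN and 10.64, 11.75 and 11.70 in VC. The 15EN arrays lie within a narrow band, and VC replicate 1 is about 1 log2 unit below the other VC arrays. The difference was 2.13 ± 0.30, or 4.38-fold (limma adjusted p = 0.00112), and by passage it was 3.01, 1.55 and 1.83.

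The 2 subunits of the S-phase enzyme moved the other way. RRM2, the small subunit made in S phase, read 9.91, 8.95 and 10.15 in 15EN and 11.46 to 11.57 in VC, a difference of -1.84 ± 0.30 (limma adjusted p = 0.00217). RRM1, the large subunit that pairs with either small one, read 12.61, 11.89 and 12.69 in 15EN and 13.49 to 13.58 in VC, a difference of -1.13 ± 0.25 (adjusted p = 0.00958). After scaling to the hybridization controls RRM2 stood at -0.97 and RRM1 at -0.26, where RRM1 no longer passed against 0. Without the moderation of variances neither passed in the least squares fit (adjusted p = 0.0656 for RRM2 and 0.0799 for RRM1). Within arrays, RRM2B minus RRM2 went from -0.93, 0.26 and 0.24 in VC to 3.73, 4.36 and 3.38 in 15EN. This shift of 3.97 has an exact permutation p of 0.1 and does not depend on array scaling.

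Of 14 other measured genes of deoxynucleotide supply, 1 was higher and 4 lower, with a median of -0.30 (12.3% of all genes were higher and 9.09% lower). The higher gene was the deaminase DCTD (0.89 ± 0.19, limma adjusted p = 0.00889). Beside RRM1 and RRM2, the kinase DCK (-0.85 ± 0.25, adjusted p = 0.0325) and SAMHD1, which degrades deoxynucleotide triphosphates (-0.87 ± 0.26, 0.0375), fell. DCK lost its call without 15EN replicate 2 or any 1 VC array, and SAMHD1 without any 1 array other than 15EN replicate 3, so that the lower count was 2 without 15EN replicate 2 or any 1 VC array. After scaling to the hybridization controls DCK was at 0.02 and SAMHD1 at 0.00. The list then had 6 higher and 1 lower, where 68.7% of all genes were higher and 2.47% lower.

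TIGAR (chr12:4321213-4360028) had the largest rise of the members. It encodes a fructose bisphosphatase that lowers glycolytic flux and favours the pentose phosphate pathway, which regenerates NADPH. It read 12.06, 12.29 and 11.49 in 15EN and 8.80, 9.18 and 9.27 in VC, so that the groups are more than 2 log2 units apart at their nearest arrays. The difference was 2.86 ± 0.26, or 7.26-fold (limma adjusted p = 0.00019), the 30th largest rise among all genes. PFKFB3, which makes the fructose 2,6-bisphosphate that TIGAR removes, differed by 0.01 ± 0.41 (95% interval -0.91 to 0.92, adjusted p = 0.995), with 9.68 in 15EN replicate 1 and 9.88 in VC replicate 1 below the other arrays of their groups. Of 17 measured genes of fructose bisphosphate control and the pentose phosphate pathway, 1 was higher and 0 lower, with a median of 0.01 (12.3% of all genes were higher and 9.09% lower). That gene, the transketolase TKT, was at 0.72 ± 0.23 (limma adjusted p = 0.0441), and missed the threshold without 15EN replicate 2 or any 1 VC array (0.0967 to 0.157), after quantile normalization (0.0612), after median centring (0.0527) and after removal of a brightness trend (0.0958). The lower count was 2 after quantile normalization or removal of the brightness trend, and 1 in the fit blocked by replicate number, without 15EN replicate 3, with array weights, with a trended robust prior or with the dimmest genes left out. Scaled to the hybridization controls, the list had 11 higher genes of 17, where 68.7% of all genes were higher.

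SESN1 (chr6:108984309-109094846) encodes sestrin 1, which restrains the growth kinase complex mTORC1 when amino acids are scarce. It read 9.04, 9.33 and 9.62 in 15EN and 7.90, 8.06 and 8.35 in VC, and VC replicate 1 was dim. Unlike DDB2, TIGAR and POLH it was highest in 15EN replicate 3. The difference of 1.23 ± 0.23, or 2.34-fold (limma adjusted p = 0.00465), was the smallest of the members and among the most even by passage, at 1.14, 1.27 and 1.27.

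The other sestrins were less even. SESN2, which responds to the stress factor ATF4 as well as to p53, read 10.62, 11.30 and 9.13 in 15EN against 8.79 to 8.83 in VC. Its difference of 1.54 ± 0.44 passed (limma adjusted p = 0.0318) but did not without any 1 array other than 15EN replicate 3 (0.0931 to 0.106). SESN3, a target of FOXO factors, differed by 0.51 ± 0.34 (95% interval -0.24 to 1.26, adjusted p = 0.351) and passed without 15EN replicate 3 (0.83, 0.049) and after scaling to the hybridization controls (1.38, 0.0027). SESN1 minus SESN2 within arrays was -1.58 and -1.97 in 15EN replicates 1 and 2 and 0.49 in replicate 3, against -0.91 to -0.45 in VC, so the groups overlap (exact permutation p = 0.8).

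Of 24 measured genes of sestrin and mTORC1 amino acid control, 4 were higher and 2 lower, with a median of 0.14 (12.3% of all genes were higher and 9.09% lower). Higher were ITFG2 (1.67 ± 0.23, limma adjusted p = 0.000872), a subunit of the KICSTOR complex, SEH1L (1.37 ± 0.23, 0.00235), a subunit of GATOR2, SESN2 and the GTPase RRAGD (0.93 ± 0.29, 0.0442). Lower were the mTORC1 inhibitor DDIT4 (-1.36 ± 0.25, adjusted p = 0.00393) and the arginine sensor CASTOR2 (-1.18 ± 0.22, 0.00424). After scaling to the hybridization controls they were at -0.49 (adjusted p = 0.0863) and -0.31 (0.287), and neither passed. There 18 genes of the list were higher, where 68.7% of all genes were. The higher count was 7 without 15EN replicate 3, where 18.2% of all genes were higher. It was 2 when replicate 1 or 2 of either group was left out, where 1301 to 1498 of all genes were higher, against 2179 on all arrays. RRAGD did not pass without any 1 array other than 15EN replicate 3 (0.114 to 0.155).

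FDXR passes electrons from NADPH to the mitochondrial ferredoxins, which serve iron-sulfur cluster assembly, heme A synthesis and steroid synthesis. Its electron acceptor FDX1 was dim on all 6 arrays and differed by 0.03 ± 0.21 (95% interval -0.44 to 0.50, limma adjusted p = 0.948), and passed as higher after scaling to the hybridization controls (0.90, 0.00794). Of 15 measured genes of ferredoxin function and iron-sulfur assembly, 5 were higher and 0 lower, with a median of 0.34 (12.3% of all genes were higher and 9.09% lower). The pair that makes heme A for cytochrome c oxidase had the largest rises, COX10 by 1.72 ± 0.25 and COX15 by 1.64 ± 0.22 (limma adjusted p = 0.00121 and 0.000734). The assembly factors IBA57 (1.13 ± 0.23), HSCB (1.00 ± 0.24) and BOLA3 (0.87 ± 0.21) rose from dim levels on all VC arrays. The count was 3 without VC replicate 1 or 3, as HSCB and BOLA3 then missed the threshold. Without 15EN replicate 3, 1 gene of the list was lower, where 12.7% of all genes were. HSCB also missed the threshold without 15EN replicate 1 (adjusted p = 0.0602) or 2 (0.0557).

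Both members that act at mitochondria started from dim levels. TRIAP1 (chr12:120443964-120446384), a small protein that works with PRELI proteins to carry phosphatidic acid between mitochondrial membranes and protects cells from death, read 9.10, 9.14 and 8.78 in 15EN and 6.85, 6.47 and 7.48 in VC. All VC arrays were dim and no 15EN array was. The difference was 2.07 ± 0.27, or 4.21-fold (limma adjusted p = 0.000765), a size that is uncertain because the VC level lies among the negative controls. SPATA18 (chr4:52051304-52097299), also called Mieap, which takes part in the removal of oxidised mitochondrial proteins, read 7.34, 8.11 and 7.49 in 15EN and 6.21, 5.50 and 6.91 in VC. All VC arrays and 2 of the 15EN arrays were dim, and the difference of 1.44 ± 0.35, or 2.71-fold (limma adjusted p = 0.0151), is the least certain of the members. It missed the threshold without 15EN replicate 2 (1.21, adjusted p = 0.0634), VC replicate 1 (1.44, 0.0541) or VC replicate 2 (1.09, 0.0665).

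PRELID1, the main partner of TRIAP1, differed by 0.22 ± 0.22 (95% interval -0.26 to 0.70, limma adjusted p = 0.55), and passed as higher after scaling to the hybridization controls (1.09, 0.00338). Of 13 measured genes of the PRELI family, cardiolipin synthesis and mitophagy, 2 were higher and 2 lower, with a median of 0.03 (12.3% of all genes were higher and 9.09% lower). PRELID3A, a relative of PRELID1, rose by 1.20 ± 0.25 (adjusted p = 0.00649) from a dim level, and TAMM41, an enzyme of cardiolipin synthesis, by 0.95 ± 0.28 (0.0366). PRELID2 fell (-1.18 ± 0.29, adjusted p = 0.0154) and was dim on 2 of the 15EN arrays. The mitophagy receptor BNIP3L fell as well (-0.88 ± 0.20, 0.0114). Scaled to the hybridization controls, PRELID2 stood at -0.32 and BNIP3L at -0.01, and neither passed. BNIP3L lost its call without VC replicate 1 (0.0513), PRELID2 without 15EN replicate 2 or VC replicate 1 or 2, and TAMM41 without any 1 array other than 15EN replicate 3. The higher count was 1 without any 1 array other than 15EN replicate 3, and the lower count 1 when replicate 2 of either group was left out and 0 without VC replicate 1.

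RPS27L (chr15:63148249-63157477) is a close paralog of the small-subunit ribosomal protein RPS27 that binds MDM2 and influences p53 stability. It read 11.31, 11.27 and 11.29 in 15EN and 9.32, 9.26 and 9.57 in VC. The spread of 0.02 (SD, n = 3) in 15EN was the smallest of the members in that group. The difference was 1.91 ± 0.20, or 3.76-fold (limma adjusted p = 0.000289). RPS27 differed by -0.21 ± 0.21 (95% interval -0.68 to 0.25, adjusted p = 0.553), a sign that turned to 0.66 after scaling to the hybridization controls. RPS27L minus RPS27 rose by 2.12 between the groups within arrays (exact permutation p = 0.1, the smallest possible). Since the transcripts are alike, probes of one could in part read the other, which was not tested.

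Of 20 measured proteins of the small ribosomal subunit, 1 was higher and 0 lower, with a median of -0.05 (12.3% of all genes were higher and 9.09% lower). The gene called was RPS15 (0.96 ± 0.30, limma adjusted p = 0.0437). It missed the threshold without any 1 array other than 15EN replicate 3 (0.0529 to 0.17) and after quantile normalization or removal of a brightness trend (0.0643 in both). The list had 2 higher genes in the fit blocked by replicate number and 0 when replicate 1 or 2 of either group was left out. Its values ran from -0.36 to 0.96, against 1.91 for RPS27L. Scaled to the hybridization controls, 18 of the 20 were higher, where 68.7% of all genes were.

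**Figure D2:**
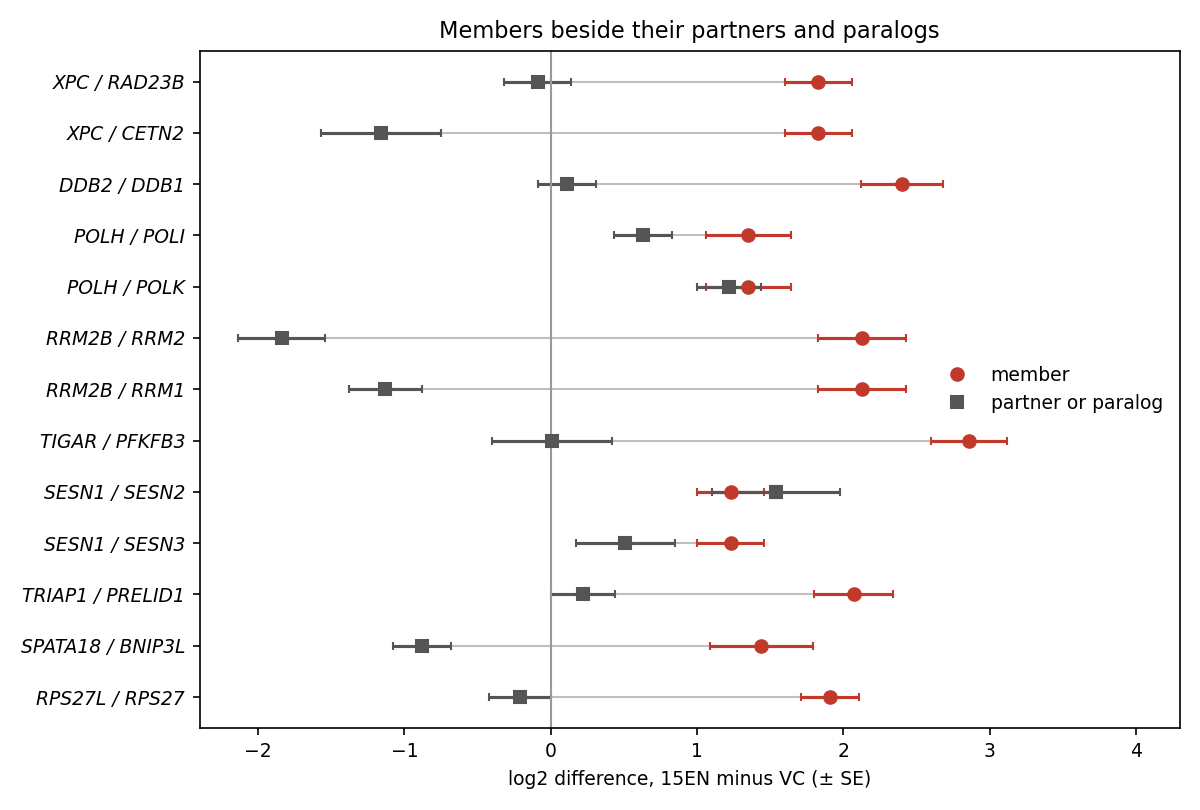
Log2 difference between 15EN and VC (horizontal axis, ± SE) of each member (red circles) and its partner or paralog (grey squares) for the 13 measured pairs. RRM2B and RRM2 are farthest apart (2.13 and -1.84), whereas POLH and POLK lie together (1.35 and 1.22).

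Over all 13 measured pairs of a member and a partner, the member exceeded its partner more in every 15EN array than in any VC array in 9. Every member rose without overlap by itself, as did 19.7% of all genes, and some members recur among the pairs. The like share over pairs of all genes was not computed, so the count only describes these pairs. The 4 pairs with overlapping arrays were POLH with POLI, POLH with POLK, and SESN1 with SESN2 and with SESN3. The shifts ran from -0.31 for SESN1 against SESN2 to 3.97 for RRM2B against RRM2, with adjusted exact permutation p from 0.144 to 0.8. As the smallest unadjusted p is 0.1, no pair could pass 0.05 by this test.

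Among themselves the members differed in size of response and in how it spread over passages. In order of log2 difference they were TIGAR, DDB2, RRM2B, TRIAP1, RPS27L, XPC, SPATA18, POLH and SESN1. Compared within arrays, TIGAR and DDB2, neighbours in that order, were separated by 0.46 with no overlap of groups, and no other neighbours were separated. Of the 36 pairs of members 13 were separated, 6 of them involving TIGAR. The pairs share members, and the like share over pairs of all genes was not computed. With 3 against 3 arrays a separated pair reaches an exact permutation p of 0.1 at best. Probe sets can differ in how strongly they respond, so this order is one of signals.

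By passage, TRIAP1 differed by 2.25, 2.67 and 1.30 at passages 33, 34 and 35, and SPATA18 by 1.12, 2.61 and 0.58. XPC (1.75, 1.94 and 1.79) and RPS27L (1.99, 2.02 and 1.72) were even. TIGAR (3.25, 3.11 and 2.22), DDB2 (2.70, 2.56 and 1.93) and POLH (1.79, 1.53 and 0.73) had their smallest difference at passage 35. In 4 of the 9 members 15EN replicate 3 was the lowest 15EN array, as it was in 62.6% of the 2179 genes called higher. Taken from the VC mean, the members' median stood at 1.92 (replicate 1), 1.94 (replicate 2) and 1.86 (replicate 3) for 15EN, and between -0.22 and 0.19 for VC.

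**Figure D3:**
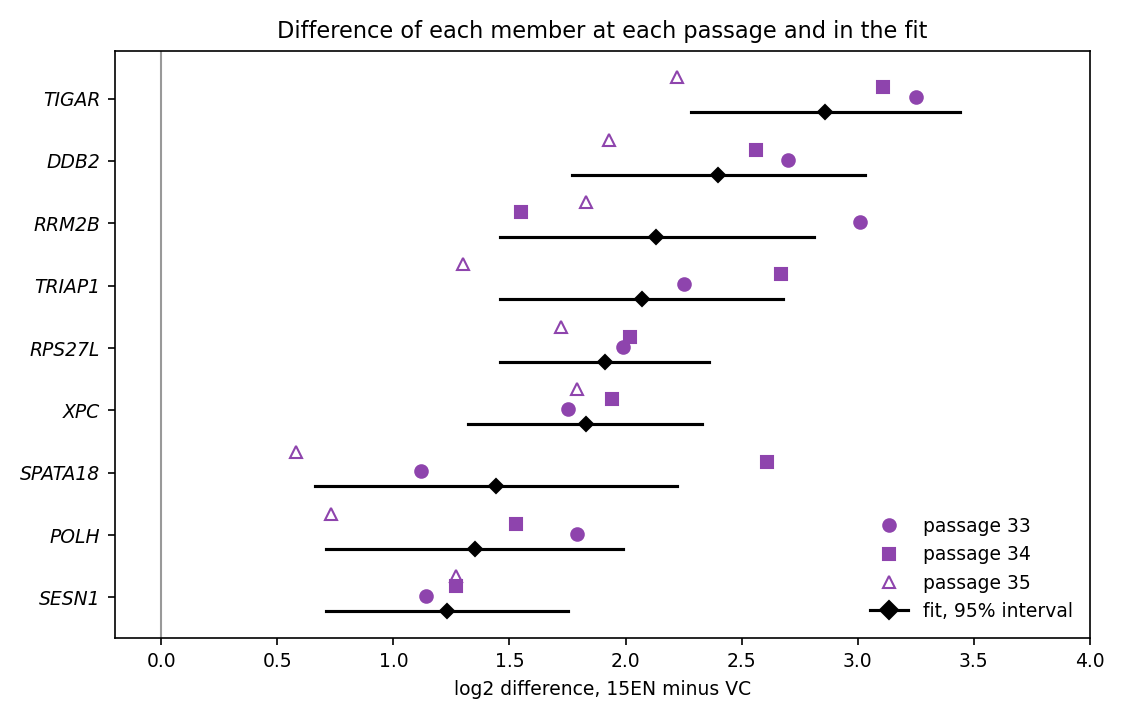
Log2 difference between 15EN and VC (horizontal axis) for each member: purple markers give the difference of the same-numbered arrays at passages 33, 34 and 35, black diamonds the fit with its 95% interval. XPC, RPS27L and SESN1 have closely grouped passages, while SPATA18 runs from 0.58 to 2.61; every interval lies above 0.

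The other p53 targets give the setting of these values. Of 44 measured targets outside the members, 26 were higher and 1 lower, with a median of 1.23 (12.3% of all genes were higher and 9.09% lower). Of these, 22 differed by less than SESN1, the smallest of the members, and 4 by more than TIGAR, the largest. Targets of arrest and feedback had 7 higher and 0 lower of 11 (median 1.54). MDM2, the ligase that degrades p53, rose by 2.24 ± 0.23 (limma adjusted p = 0.000286), the phosphatase PPM1D by 2.30 ± 0.28, GADD45A by 3.43 ± 0.34 and the RNA-binding protein ZMAT3 by 1.62 ± 0.25. CDKN1A, the cell cycle inhibitor p21, read 14.42, 15.51 and 14.98 in 15EN and 10.67, 12.83 and 12.87 in VC, with VC replicate 1 far below the other VC arrays. Its difference was 2.85 ± 0.53 (limma adjusted p = 0.00419), and 2.12 (0.00566) without VC replicate 1. Without the moderation of variances CDKN1A did not pass (adjusted p = 0.114). The targets PLK2 (0.01 ± 0.22), TP53INP1 (0.26 ± 0.24), CCNG1 (-0.44 ± 0.21) and SFN (-0.21 ± 0.23) did not pass. Scaling to the hybridization controls put PLK2 at 0.88 (adjusted p = 0.0099), TP53INP1 at 1.13 (0.00346) and SFN at 0.66 (0.0418), all called higher, and CCNG1 at 0.43 (0.126).

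Targets that promote death had 9 higher and 1 lower of 13 (median 1.37), where 12.3% of all genes were higher and 9.09% lower. The list had 5 higher without VC replicate 1, where 1424 of the 17687 genes were higher. It had 2 lower without 15EN replicate 3, where 12.7% of all genes were lower. EDA2R (3.74 ± 0.27), the nuclease AEN (3.17 ± 0.26) and the death receptor FAS (2.37 ± 0.31) rose, with limma adjusted p from 8.48e-05 to 0.000734. APAF1, the core of the apoptosome, fell by 1.57 ± 0.20 (adjusted p = 0.000695), and stood at -0.70 after scaling to the hybridization controls. Of 20 further targets 10 were higher and 0 lower (median 0.82), among them the helicase ASCC3 (2.13 ± 0.28), the cytokine GDF15 (4.27 ± 0.57), the ubiquitin ligase RNF19B (1.52 ± 0.26) and the ceramidase ACER2 (1.47 ± 0.27). Without the moderation of variances, 4 arrest, 3 death and 2 further targets were higher, where 789 of all genes were. Leaving out 1 array gave 5 to 7, 5 to 9 and 7 to 10 of them, where all genes gave 1301 to 3227.

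Of 16 measured regulators of p53, 3 were higher and 0 lower, with a median of 0.15 (12.3% of all genes were higher and 9.09% lower). Beside MDM2 these were the acetyltransferase CREBBP (1.10 ± 0.21, limma adjusted p = 0.00449) and the ubiquitin ligase RCHY1 (1.29 ± 0.26, 0.00571). MDM4, the partner of MDM2, differed by 0.44 ± 0.31 (adjusted p = 0.387), and passed after scaling to the hybridization controls (1.30). Without 15EN replicate 3 the count was 5, where 18.2% of all genes were higher. The gene of p53 itself was not analysed here.

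**Figure D4:**
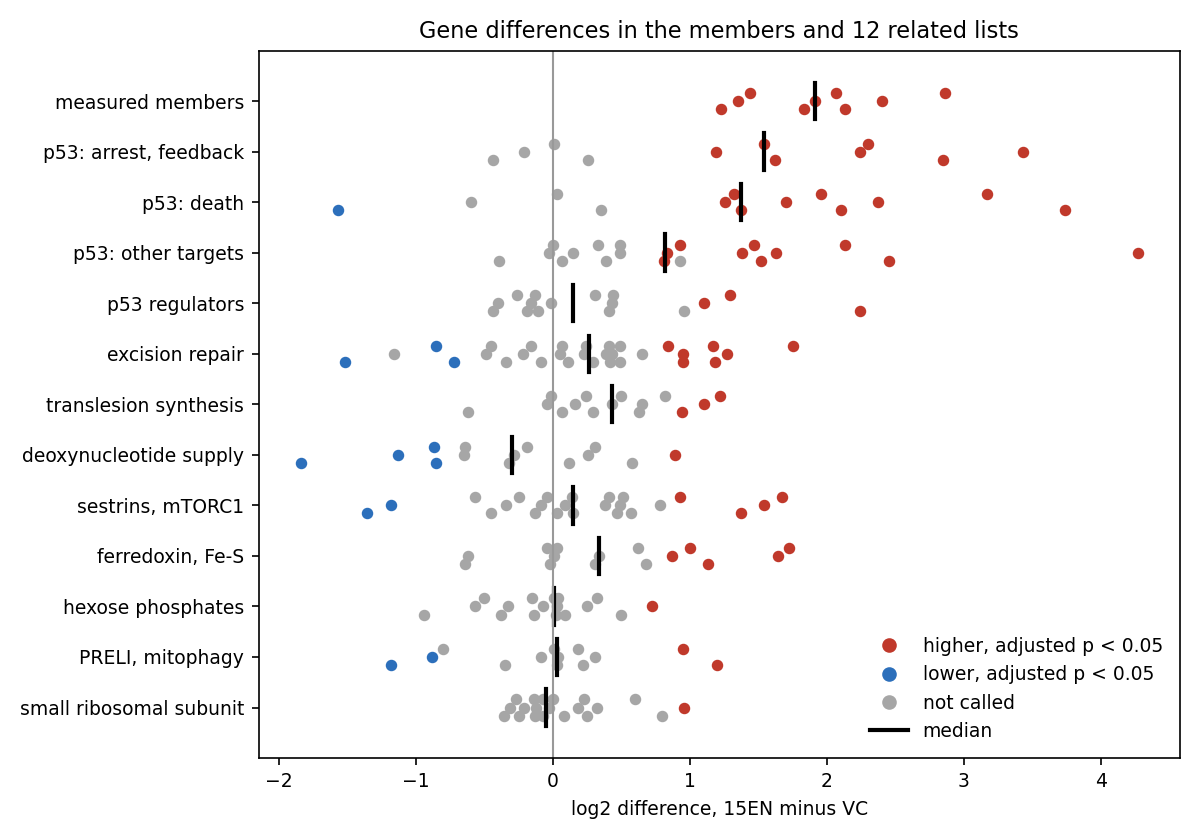
Log2 difference between 15EN and VC (horizontal axis) of the measured members and of each gene in 12 related lists; colour gives the call at an adjusted p of 0.05 and the black bar the median. The members' median is 1.91 and those of the 3 lists of other p53 targets are 1.54, 1.37 and 0.82, while medians of the repair, nucleotide, metabolic, mitochondrial and ribosomal lists run from -0.30 to 0.43.

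Markers of the cell line and of other cells were read beside these results, where 12.3% of all genes were higher and 9.09% lower. Of 13 measured adrenergic neuroblastoma markers, 0 were higher and 6 lower (median -0.88), with STMN2, DBH and ISL1 of smallest p. Their summed signal was 15.67 to 15.95 (log2) in 15EN and 16.59 to 17.06 in VC. HAND2, GATA2, ISL1 and PHOX2A were bright in both groups, and TH, CHGA and SLC18A2 were dim on all 6 arrays. Leaving out replicate 1 of either group brought the lower genes to 3. After scaling to the hybridization controls, 4 of these markers were higher and 2 lower, where 68.7% of all genes were higher and 2.47% lower. The 2 lower were STMN2 (-0.85) and DBH (-0.72), while ISL1 (-0.33, limma adjusted p = 0.261) did not pass. Substrate-adherent markers had 2 higher (FOSL1 and YAP1) and 3 lower (NOTCH2, VIM and SNAI2) of 12, and summed to 15.60 to 16.14 in 15EN and 16.70 to 16.78 in VC. SNAI2 lost its call when any 1 array other than 15EN replicate 3 was left out (adjusted p = 0.075 to 0.115). Fibroblast markers had 0 higher and 4 lower (COL5A1, COL6A1, COL1A1 and THY1) of 11, and summed to 14.64 to 15.10 and 14.74 to 14.99. Only 2 of them stayed lower when 15EN replicate 1, VC replicate 2 or VC replicate 3 was left out, and in the fit blocked by replicate number 1 was higher. Scaling to the hybridization controls gave 5 higher and 0 lower substrate-adherent markers and 4 higher and 2 lower fibroblast markers. NOTCH2 (-0.64), VIM (-0.08) and COL1A1 (-0.01) did not pass there, nor did SNAI2 (0.14) and THY1 (0.08), whose signs turned. None of 9 glial markers, Schwann cell genes among them, was called in either direction (0 higher, 0 lower by limma), and 8 of the 9 were dim on all 6 arrays, with NGFR the exception. They summed to 10.13 to 10.79 in 15EN and 10.84 to 11.27 in VC, and 6 were higher after that scaling. All these sums are of unlogged signal, so the brightest genes of a list weigh most. Sums of log2 values overlapped between the groups for the glial (44.3 to 46.6 in 15EN, 45.4 to 46.2 in VC) and substrate-adherent markers (119.1 to 126.5, 121.9 to 125.8). They were lower in 15EN without overlap for the adrenergic (127.2 to 128.0, 136.1 to 138.9) and fibroblast markers (100.6 to 106.7, 109.4 to 110.9). The part of these shifts in the rise of the members was not tested.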

How the data were processed

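The authors deposited 1 table of log2 signals for 6 arrays (24351 probe sets, 2903 of them controls), made with Transcriptome Analysis Console per the submitters' processing notes; the sources used here give no version, summarization, normalization or genome build, and the log2 scale was judged from the values (2.20 to 18.82). Of 21448 gene probe sets, 17709 carry 1 symbol in the platform annotation, 0 several, and 3739 are unnamed here; all 17709 matched RefSeq (GRCh38.p14) by Entrez identifier. The probe set of highest mean was kept per gene (22 set aside), with no filter on dim ones.

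Groups were compared with limma 3.58.1 (R 4.3.3, lmFit and eBayes, two-sided, Benjamini-Hochberg over 17687 genes, threshold 0.05). The fit was also run on simulated data with independent noise and few changed genes, unlike these arrays. False calls were recorded there without a check, so that run does not bear on the p-values here. Errors beside differences are standard errors. No set test was run. The members, lists, pairs and alternatives were chosen with earlier results of these data known.

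Named are the members, their partners, MDM2, MDM4 and CDKN1A; up to 4 called genes of smallest p per list; all genes of counts up to 5; up to 3 markers per cell list; and the 5 genes of likest profile. GATA2, HAND2, PHOX2A, TH, CHGA and NGFR, the markers that describe the line and the dim glial list, SLC18A2 and the further lower markers were named after their values were seen. Arrays that share a replicate number shared deviations from the means of their groups (correlations of 0.229, 0.162 and 0.133, against -0.138 to -0.016 for other numbers). Deviations cancel within a group, so these correlations are not independent of each other. The labels tie each number to a passage, and on that basis the numbers pair the samples. Errors and p-values given with the genes nevertheless come from the fit without this pairing, unless the blocked fit is named, and the permutation test ignores it. For CDKN1A the standard error was 0.53 without the block and 0.30 with it (limma adjusted p = 0.000289). The number of arrays limits the precision.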

Additional observations from a re-analysis of the deposited data

How the results depend on the processing

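Over 16 alternatives, the 9 members kept their direction in all 144 refits and their call in 137; the 7 lost calls are given with the genes. With the replicate block, all 9 members passed and all genes gave 2415 higher and 1788 lower, 1 list gene (RPA1) lost its call and 11 gained one, among them CETN2 and GATA2; no other call of a list gene changed. Scaling to the hybridization controls gave 12150 higher and 437 lower genes in all, 162 and 3 among the pathway lists and 19 and 4 among the cell markers, and turned RAD23B to 0.78 and RPS27 to 0.66. Without moderation these counts were 789 and 637, 22 and 4, and 4 lower markers, with 5 members called. Beside the losses given with the genes, MAD2L2, REV3L, POLE, RPA1, DCK, SAMHD1, SESN2, RRAGD, DDIT4, HSCB, IBA57, TKT, PRELID2, PRELID3A, TAMM41, RPS15, RCHY1, GDF15, RNF19B, ACER2, ISL1, PHOX2A, CHGA, NOTCH2, SNAI2, COL6A1, COL1A1 and THY1 did not pass there (limma's least squares fit, adjusted p from 0.0519 to 0.227). Leaving out 1 array gave 1301 to 3227 higher and 970 to 2240 lower genes, 8 to 9 members, 32 to 61 higher and 6 to 19 lower pathway genes, and 7 to 16 lower markers. The members' median in 15EN replicates 1, 2 and 3 was 2.62, 2.86 and 2.85 after that scaling, 1.79 and 1.81 (replicates 1 and 2) after quantile normalization, and 1.78 and 1.84 after removal of a brightness trend. The cause of these shifts was not tested, beyond the constant that the scaling adds and the fewer arrays fitted. Signal near the negative controls limits TRIAP1 and SPATA18.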

Other observations

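The genes whose 6 values, each relative to its VC mean, lay closest to the median profile of the members were ZFR, GRWD1, PAK1IP1, IER5 and BRAP, at root mean square distances of 0.09 to 0.12 on the log2 scale. ZFR encodes a zinc finger RNA-binding protein, GRWD1 and PAK1IP1 proteins of ribosome biogenesis, IER5 an immediate-early protein and BRAP a protein that binds BRCA1 and dampens MAP kinase signalling. ZFR stood at 1.96, 2.0 and 1.88 above its VC mean in 15EN replicates 1, 2 and 3, and GRWD1 at 1.88, 2.17 and 1.90. Their log2 differences were 1.95 ± 0.22 and 1.98 ± 0.21. PAK1IP1 differed by 1.91 ± 0.19, IER5 by 1.97 ± 0.22 and BRAP by 1.79 ± 0.21, with limma adjusted p of 0.00026 to 0.000464 over the 5 genes. Among the members themselves, RPS27L (0.11) and XPC (0.17) lay nearest to that profile and TIGAR (0.71) farthest. This likeness is over 6 arrays that differ mostly by group.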
